A study of Canis lupus familiaris with 6 samples.

Results

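The molecular chaperones that help proteins fold were followed in the left ventricle of dogs with and without cardiomyopathy: the HSP70, HSP90 and HSP110 heat shock genes, the J-proteins, the chaperonins and the BAG cochaperones. Members were taken by gene symbol in the array annotation, which gave 148 probe sets for 67 genes, of 29254 probe sets for 15115 genes with 1 symbol on the array. They comprised 10 HSP70 genes (HSPA), 3 HSP90 genes, the HSP110 gene HSPH1, 37 J-protein genes (3 DNAJA, 12 DNAJB and 22 DNAJC), the 2 mitochondrial chaperonin genes, 8 CCT genes of the cytosolic chaperonin and 6 BAG genes. The classes follow the symbols, although HSPA4 and HSPA4L belong by sequence to the HSP110 family. Another 2 probe sets with a matching symbol among several were left out, and no probe set was named here for HSPA1A or DNAJA1.

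RNA of 1 left ventricle per dog, frozen in liquid nitrogen, was hybridised to 1 Affymetrix canine array. Cardiomyopathy marked the affected group, all Great Danes and labelled as DCM tissue, made up of a female aged 9 years (affected 1) and males aged 7 years (affected 2 and affected 3). The controls were a male Labrador retriever aged 12 years (control 1), a female St. Bernard aged 10 years (control 2) and a male Greater Swiss Mountain dog aged 4 years (control 3). No treatment or engineered allele is recorded for any of the 6 dogs. Disease and breed cannot be told apart, since every affected dog was a Great Dane and no control was. The deposited values were centred: each is the log2 difference from that probe set's median over the 6 arrays, so it carries no level, and one gene's abundance cannot be set against another's. In whole ventricle, fewer cells of a type and less RNA per cell cannot be told apart.

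As background, HSP70 proteins bind and release unfolded protein in a cycle driven by ATP. J-proteins bring them their clients and start ATP hydrolysis, while HSP110 and BAG proteins exchange the nucleotide and so end the cycle. HSP90 acts later on clients such as kinases and steroid receptors, the CCT ring folds actin and tubulin, and HSPD1 with its lid HSPE1 folds proteins imported into mitochondria. Many of these genes are induced by heat shock factor 1 when misfolded protein accumulates. In heart muscle the system is known for upkeep of the sarcomere, and changes in BAG3 and DNAJC19 cause inherited dilated cardiomyopathy in humans.

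None of the 67 genes passed the adjusted threshold of 0.05 in limma in either direction, and over all 15115 genes 0% were called (smallest adjusted p = 0.158). At an unadjusted p under 0.05, 4 chaperone genes were higher and 0 were lower in affected hearts, where the same criterion took 4.88% of all genes higher and 5.64% lower. These 4 were HSPA2, DNAJA2, DNAJC8 and BAG4. The count moved with single arrays: 1 gene was higher without affected 1 and 7 without affected 2 (all genes 3.24% and 6.97%), and 13 were lower without control 2 (all genes 24.0%). The difference lay above 0 in 38 of the 67 genes, or 56.7%, with a median of 0.032, against 35% of all genes and a median of -0.075. By probe set, 0 of 148 passed (all probe sets 0.00233% higher and 0% lower), while 6 were higher and 3 lower before adjustment (p under 0.05), where 4.53% and 6.32% of all probe sets were. Groups did not overlap in 11 probe sets that were higher and 29 that were lower (all probe sets 5.37% and 46.9%). The smallest adjusted p of a chaperone gene was 0.322, and no direction below is more than a description of these 6 arrays. After centring each array on its median, 64.2% of the chaperone genes and 48.9% of all genes lay above 0, and after quantile normalization 53.7% and 44.4% did.

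**Figure D1:**
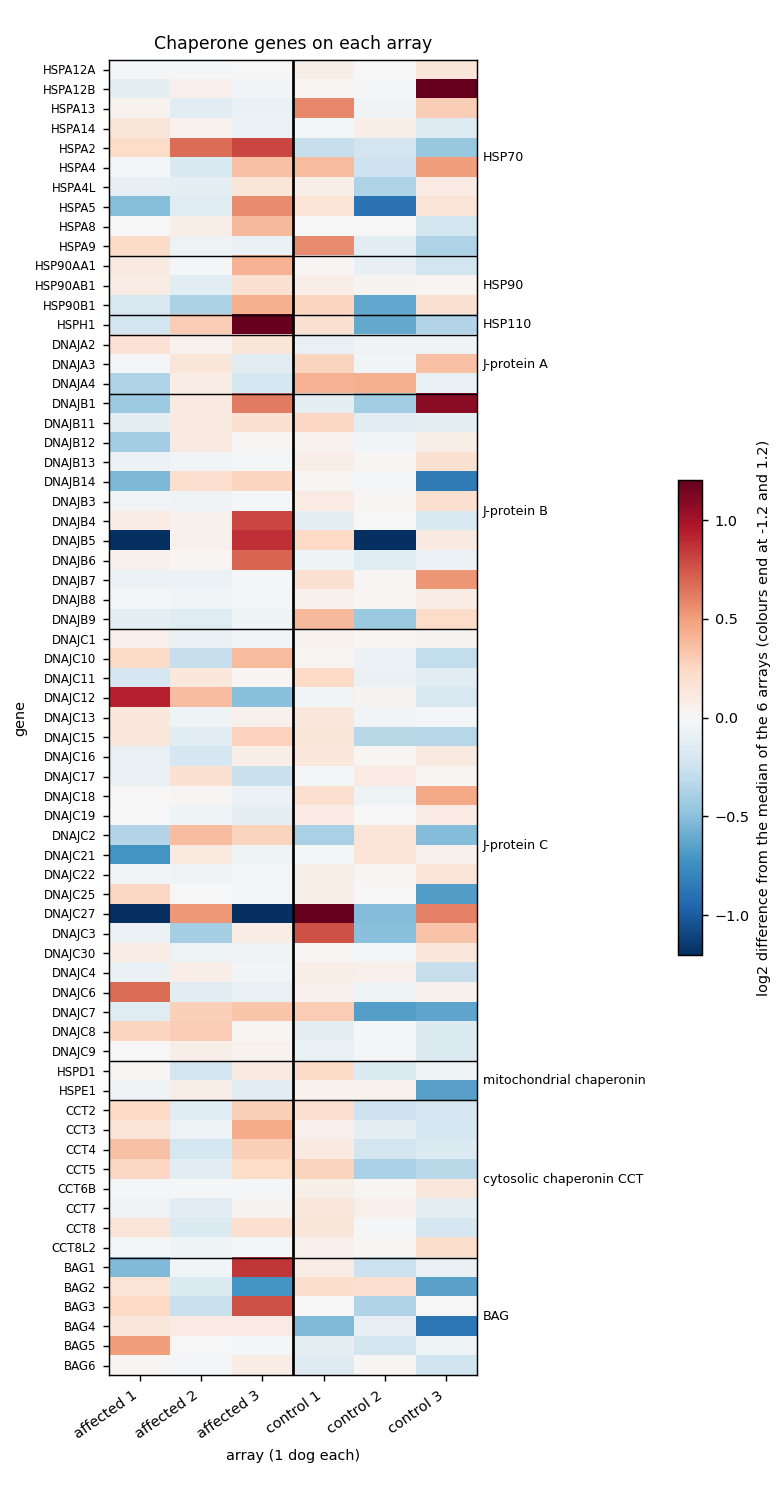
Log2 difference from the median of the 6 arrays for the 67 chaperone genes (rows, grouped by class) on each array (columns, affected dogs left of the line). HSPA2, DNAJA2, DNAJB4, DNAJB6, DNAJC8, DNAJC9 and BAG4 were above 0 on all affected arrays and below 0 on all control arrays. HSPH1, DNAJB4, DNAJB6 and BAG3 were among the 21 genes with their highest value on affected 3.

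Among the HSP70 genes, HSPA2 stood out. This member is best known as the HSP70 of developing sperm and is also made in other tissues. It had 0.22, 0.67 and 0.80 in the affected dogs, against -0.28, -0.22 and -0.45 in the controls. All affected values lay above all control values. HSPA2 averaged 0.56 ± 0.31 in affected and -0.32 ± 0.12 in control hearts (SD, n = 3 each), a difference of 0.88 (SE 0.17), or 1.84-fold (unadjusted p = 0.00302, limma adjusted p = 0.322). With single arrays left out the difference ran from 0.76 to 1.05. It rested on 1 probe set, whose correlation with the mean of the 17 control tags that match no dog transcript was -0.79 over the 6 arrays, and the part of background in it was not tested.

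HSPA8, the constitutive HSP70 of the cytosol, had -0.0086, 0.081 and 0.39 in the affected dogs, against 0.0072, -0.0072 and -0.22 in the controls. Affected 3 was highest, control 3 lowest, and the groups overlapped. Its difference was 0.23 (SE 0.13), with unadjusted p = 0.135, limma adjusted p = 0.322, and it was 0.11 without affected 3. HSPA5, the HSP70 of the endoplasmic reticulum also called BiP, had -0.51, -0.15 and 0.57 in the affected dogs, against 0.16, -0.89 and 0.16 in the controls. The 2 lowest values were those of the females, affected 1 and control 2, and the group difference of 0.16 (SE 0.41) was smaller than its error. Leaving out affected 3 turned it to -0.14 and leaving out control 2 to -0.19. HSPA9, the mitochondrial HSP70, had 0.23, -0.060 and -0.077 in the affected dogs, against 0.57, -0.13 and -0.37 in the controls, so control 1 and control 3 held both extremes. It differed by 0.0081 (SE 0.26), and its 3 probe sets ran from -0.26 to 0.18.

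HSPA13, an HSP70-like protein of microsomes, had 0.046, -0.12 and -0.084 in the affected dogs, against 0.58, -0.046 and 0.30 in the controls. The affected arrays lay close together and overlapped with control 2 alone, with a difference of -0.33 (SE 0.17) in which both probe sets were alike, and -0.18 without control 1. The 3 probe sets of HSPA4, an HSP110 relative, went apart. One differed by 0.65, with 0.35, -0.35 and 1.16 in the affected dogs and 0.39, -0.60 and -0.59 in the controls. The other probe sets differed by -0.48 and -0.65, and their correlations with the unexpressed tags over the 6 arrays were 0.88 and 0.92. The gene mean of -0.16 is therefore an average over opposite readings, and it ran from -0.39 without control 2 to -0.013 without control 3. The endothelial HSP70 relative HSPA12B, named after its values were seen, had 2.35 on control 3 and between -0.11 and 0.057 on the other 5 arrays. Its difference of -0.81 (SE 0.69) became -0.028 without control 3. Endothelial markers had a median of -0.22 on that array, and their part in this value was not tested. HSPA12A, HSPA14 and HSPA4L differed by -0.095, 0.070 and 0.043.

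HSP90 genes showed small differences. HSP90AA1, the inducible cytosolic form, had 0.11, -0.011 and 0.41 in the affected dogs, against 0.011, -0.094 and -0.22 in the controls, with affected 3 highest and a difference of 0.27 (SE 0.13, unadjusted p = 0.0897, limma adjusted p = 0.322). Without affected 3 it was 0.15. HSP90AB1, the constitutive form, averaged 0.048 ± 0.16 in affected and 0.045 ± 0.030 in control hearts (SD, n = 3 each), a difference of 0.0024 (SE 0.091). That value hid a split among its 5 probe sets. Of these, 3 differed by 0.14, 0.21 and 0.28, while the other 2 differed by -0.30 and -0.32 and followed the unexpressed tags at correlations of 0.996 and 0.985. Without those 2 the gene had 0.18, -0.17 and 0.32 in the affected dogs, against -0.047, 0.045 and -0.30 in the controls, a difference of 0.21 (SE 0.17). The reticulum form HSP90B1 had -0.19, -0.38 and 0.43 in the affected dogs, against 0.26, -0.63 and 0.19 in the controls, with control 2 lowest and affected 3 highest, and differed by 0.013 (SE 0.33).

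HSPH1, the HSP110 that drives nucleotide exchange on HSP70, had -0.23, 0.30 and 1.29 in the affected dogs, against 0.19, -0.62 and -0.35 in the controls. Affected 3 was far above the other 5 arrays, control 2 was lowest and the groups overlapped. Affected 3 was highest in all 3 probe sets and control 2 lowest in 2 of them, with differences from 0.68 to 0.78, and the gene difference was 0.71 (SE 0.44, unadjusted p = 0.162, limma adjusted p = 0.328). It was 0.30 without affected 3, 0.53 without control 2 and 1.05 without affected 1.

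The J-proteins as a whole lay near the middle, with 17 of 37 above 0 and a median of -0.048, against 35% of all genes above 0. Without the probe sets that follow the unexpressed tags, 19 of 32 lay above 0 with a median of 0.070, against 56.2% of genes. The probe sets left out were all lower in affected hearts, so this turn in direction follows from the filter. DNAJA2, a cytosolic partner of HSPA8, had 0.18, 0.041 and 0.14 in the affected dogs, against -0.087, -0.045 and -0.041 in the controls, so the groups did not overlap. The difference was 0.18 (SE 0.054) from 1 probe set (unadjusted p = 0.0197, limma adjusted p = 0.322). DNAJA4, another cytosolic type A protein, had -0.37, 0.089 and -0.21 in the affected dogs, against 0.41, 0.43 and -0.089 in the controls, with a difference of -0.42 (SE 0.19) and both probe sets lower. DNAJA3, a mitochondrial J-protein whose loss in mouse heart causes dilated cardiomyopathy, had -0.015, 0.15 and -0.13 in the affected dogs, against 0.27, -0.031 and 0.35 in the controls. Its 4 probe sets were split, 3 of them lower in affected hearts (between -0.45 and -0.23) and 1 at 0.13, for a gene difference of -0.20 (SE 0.13). It was -0.12 without control 3, -0.13 without affected 3 and -0.31 without control 2.

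In the type B group, DNAJB6 and DNAJB4 shared a pattern. DNAJB6, which suppresses protein aggregation and is mutated in a human limb-girdle muscular dystrophy, had 0.053, 0.027 and 0.70 in the affected dogs, against -0.051, -0.15 and -0.067 in the controls. DNAJB4, a heat-inducible cytosolic member, had 0.086, 0.055 and 0.81 in the affected dogs, against -0.10, -0.0050 and -0.18 in the controls. In both genes the groups did not overlap, but affected 3 alone was far from the controls. By probe set the groups overlapped in 2 of 3 for DNAJB6 and in 1 of 2 for DNAJB4. The differences were 0.35 (SE 0.20) and 0.41 (SE 0.22), and without affected 3 they were 0.13 and 0.17. DNAJB1, the classic heat-inducible J-protein, had -0.43, 0.11 and 0.62 in the affected dogs, against -0.11, -0.42 and 1.08 in the controls, so the highest array was control 3, and its difference was -0.085 (SE 0.48). The difference turned to 0.36 without control 3 and to 0.18 without affected 1.

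DNAJB5, named after its values were seen, had the widest range of the type B genes. In 2 of its 3 probe sets both females were far below the 4 males, at -1.91 and -2.35 on affected 1 and -1.55 and -2.03 on control 2. The males had between -0.19 and 0.71 in these probe sets. The third probe set read -0.0038 on affected 1 and -0.46 on control 2. In a fit with group and sex, added after the values were seen, females minus males came to -1.71 (SE 0.27, unadjusted p = 0.00239, limma adjusted p = 0.811). By unadjusted p HSPA5 came next among the chaperone genes, at -0.89 (SE 0.23, unadjusted p = 0.0163, limma adjusted p = 0.811). DNAJC27 had a larger difference of -1.21 with a larger error (SE 0.62). No gene of the array passed the adjusted threshold for sex in limma, and at an unadjusted p under 0.05 there were 2 chaperone genes of 67 and 531 genes in all, or 3.51%. Both females lay below all males in HSPA5, DNAJB1, DNAJB5, DNAJB12 and BAG1, or 5 of 67 genes, where 2.37% of all genes did. They lay above all males in 1 of 67, where 2.94% of all genes did. The interaction of sex and disease passed the adjusted threshold in 0 genes in limma, and at an unadjusted p under 0.05 it took 7 of 67 chaperone genes and 7.64% of all genes. With 1 female in each group, sex and single dogs cannot be told apart.

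Of the type C genes, DNAJC8, a splicing-associated protein, had 0.26, 0.30 and 0.011 in the affected dogs, against -0.12, -0.011 and -0.17 in the controls. The groups did not overlap, though affected 3 and control 2 nearly met, and the difference was 0.29 (SE 0.096, unadjusted p = 0.0284, limma adjusted p = 0.322). DNAJC9, a histone chaperone, had 0.0085, 0.067 and 0.044 in the affected dogs, against -0.075, -0.013 and -0.17 in the controls, also without overlap, and differed by 0.13 (SE 0.057, unadjusted p = 0.0761, limma adjusted p = 0.322). Its 2 probe sets differed by 0.21 and 0.044 and each overlapped between the groups, so the separation holds for their mean alone. DNAJC19, of the mitochondrial import motor, had -0.0053, -0.054 and -0.10 in the affected dogs, against 0.098, 0.0072 and 0.10 in the controls, with every affected dog below every control and a difference of -0.12 (SE 0.053). Its 2 probe sets did not read alike. One differed by -0.32 and followed the unexpressed tags at 0.93, and the other differed by 0.076 with overlapping groups.

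DNAJC27, a Rab-like GTPase with a J domain, was named after its values were seen because it had the lowest difference, -1.18 (SE 0.72). It had -1.24, 0.52 and -1.28 in the affected dogs, against 1.47, -0.52 and 0.60 in the controls. Affected 2 lay among the controls, so the groups overlapped (unadjusted p = 0.16, limma adjusted p = 0.327). The difference was -0.71 without control 1 and -1.78 without affected 2. Set against the controls on its own, affected 2 differed by 0.0084. The remaining type C genes differed by -0.33 for DNAJC3 up to 0.49 for DNAJC7. DNAJC3 is an inhibitor of eIF2 kinases in the reticulum, and DNAJC7 carries clients between HSP70 and HSP90. DNAJC3 was -0.047 without control 1, -0.19 without affected 2 and -0.68 without control 2, and DNAJC7 was 0.32 without control 2 and 0.80 without control 1.

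The mitochondrial chaperonin genes HSPD1 and HSPE1 are neighbours in the dog annotation (RefSeq, UU_Cfam_GSD_1.0). HSPD1 had 0.013, -0.22 and 0.11 in the affected dogs, against 0.23, -0.17 and -0.054 in the controls. HSPE1 had -0.046, 0.081 and -0.13 in the affected dogs, against 0.047, 0.046 and -0.65 in the controls. Control 3 was the one low array of HSPE1, and HSPD1 had control 1 highest and affected 2 lowest. Their differences were -0.037 (SE 0.14) and 0.15 (SE 0.21), and HSPE1 turned to -0.080 without control 3. Over the 7 members that work in mitochondria (HSPA9, HSPD1, HSPE1, DNAJA3, DNAJC11, DNAJC15 and DNAJC19), 3 lay above 0 and the median was -0.031. Over the 10 members of the endoplasmic reticulum, among them HSPA5, HSP90B1 and DNAJB9, 5 lay above 0 and the median was -0.018. Of all genes 35% lay above 0, with a median of -0.075. Without the probe sets that follow the unexpressed tags, 4 of the 7 and 5 of the 10 lay above 0. Their medians were then 0.0081 and -0.0095, against 56.2% of all genes left and a median of 0.049.

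In the cytosolic chaperonin, affected and control values overlapped in CCT2, CCT3, CCT4, CCT5, CCT7 and CCT8. Their median was 0.20, -0.14 and 0.25 on the affected arrays, against 0.14, -0.17 and -0.20 on the control arrays. The median was thus above 0 on affected 1, affected 3 and control 1 and below 0 on affected 2, control 2 and control 3, as were CCT2, CCT3, CCT4, CCT5 and CCT8, while CCT7 was not. CCT3 had 0.16, -0.064 and 0.45 in the affected dogs, against 0.059, -0.12 and -0.22 in the controls, the largest difference of the class at 0.27 (SE 0.15, unadjusted p = 0.13, limma adjusted p = 0.322). CCT5 had 0.25, -0.14 and 0.22 in the affected dogs, against 0.26, -0.39 and -0.32 in the controls. CCT4 had 0.35, -0.21 and 0.29 in the affected dogs, against 0.11, -0.22 and -0.17 in the controls, and CCT2 had 0.24, -0.15 and 0.28 in the affected dogs, against 0.19, -0.25 and -0.20 in the controls. The differences of CCT5, CCT4 and CCT2 were 0.26 (SE 0.21), 0.23 (SE 0.18) and 0.21 (SE 0.17), each little more than its error. Single dogs weighed in each: CCT3 was 0.14 without affected 3, CCT5 was 0.14 without control 2 and 0.46 without control 1, CCT4 was 0.13 without affected 1 and 0.41 without affected 2. CCT2 was 0.13 and 0.13 without control 2 or affected 3, and 0.35 and 0.35 without affected 2 or control 1. CCT8 had 0.15, -0.16 and 0.19 in the affected dogs, against 0.15, -0.020 and -0.20 in the controls, and CCT7 had -0.047, -0.14 and 0.030 in the affected dogs, against 0.14, 0.057 and -0.12 in the controls. They differed by 0.086 (SE 0.14) and -0.077 (SE 0.088), and one of the 3 probe sets of CCT7 differed by -0.36 without overlap while the others differed by -0.022 and 0.15. TCP1, the gene of the first CCT subunit and outside the symbol rule, had 0.16, -0.028 and 0.060 in the affected dogs, against 0.093, -0.041 and -0.087 in the controls, with overlap. CCT6B and CCT8L2, which in humans are testis genes, followed the unexpressed tags in all 3 of their probe sets.

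**Figure D2:**
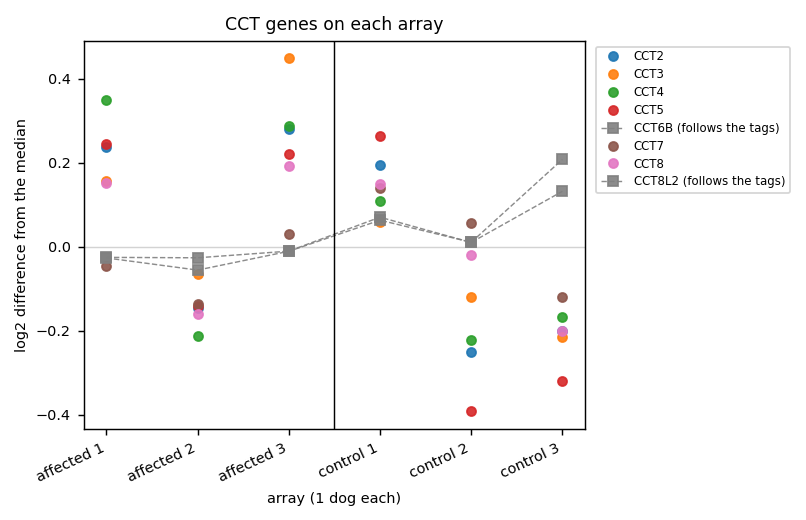
Log2 difference from the median of the 6 arrays (y axis) for the 8 CCT genes on each array (x axis, affected dogs left of the line), with points for subunits and joined squares for the 2 genes that follow the unexpressed tags. Affected 2 lay with control 2 and control 3 for CCT2, CCT4 and CCT5, so the groups overlapped.

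BAG genes had 5 of 6 differences above 0 and a median of 0.24. BAG4, which also binds the intracellular part of TNF receptors, had 0.14, 0.098 and 0.099 in the affected dogs, against -0.53, -0.098 and -0.87 in the controls, so the affected arrays lay close together above all controls. The difference was 0.61 (SE 0.20) from 1 probe set (unadjusted p = 0.0255, limma adjusted p = 0.322), and it was 0.43 without control 3 and 0.81 without control 2. Its values were a near mirror of the unexpressed tags, at a correlation of -0.99 over the 6 arrays. Such a correlation under -0.9 was found in 3 of 148 chaperone probe sets and in 2.52% of all, and the part of background in the BAG4 difference was not tested. BAG3, the cochaperone that links HSP70 to small heat shock proteins and autophagy at the Z-disc, had 0.24, -0.27 and 0.76 in the affected dogs, against 0.0085, -0.36 and -0.0085 in the controls, with overlap. Both of its probe sets were alike, and the difference of 0.36 (SE 0.28) was 0.10 without affected 3 and 0.62 without affected 2.

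BAG5, with 4 probe sets, had 0.50, 0.0053 and -0.014 in the affected dogs, against -0.11, -0.22 and -0.060 in the controls, and the groups did not overlap. It differed by 0.29 (SE 0.16, unadjusted p = 0.116, limma adjusted p = 0.322), of which affected 1 carried much, since without it the difference was 0.13. Its probe sets differed by -0.0090 to 0.52, and 2 of the 4 overlapped between the groups. BAG6, which guides tail-anchored membrane proteins, had 0.016, -0.012 and 0.092 in the affected dogs, against -0.15, 0.018 and -0.24 in the controls and differed by 0.16 (SE 0.082), or 0.10 without control 3. BAG1 and BAG2 differed by 0.18 and -0.16, less than their errors of 0.37 and 0.33, and both turned sign without affected 3.

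**Figure D3:**
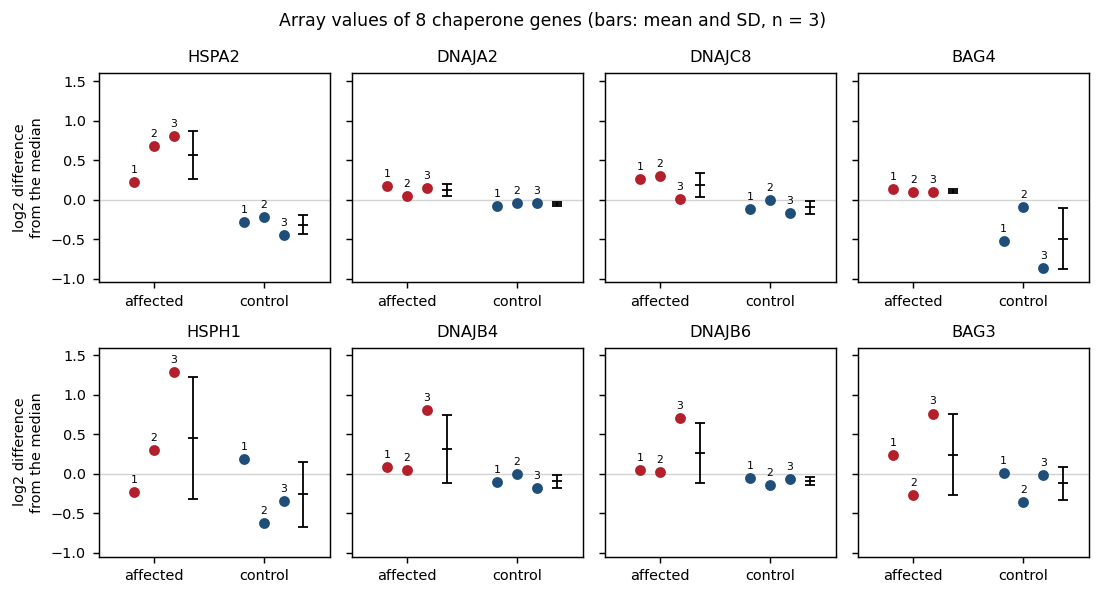
Array values (points, numbered by dog) on the log2 scale, with mean and SD beside each group (n = 3 each). The upper row has the 4 genes at an unadjusted p under 0.05 in limma, in which affected and control values do not overlap. The lower row has 4 genes picked among those with their highest value on affected 3 (HSPH1, DNAJB4, DNAJB6 and BAG3). That affected 3 stands above the other arrays there follows from the choice. Of the heat shock factor 1 targets not shown, HSPA8, HSP90AA1 and HSP90AB1 were also highest on affected 3. DNAJB1 was highest on control 3, HSPD1 on control 1 and HSPE1 on affected 2.

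Affected 3 was the highest array in 21 of the 67 genes, or 31.3%, where 11.2% of all genes had their highest value there. Control 3, on which the unexpressed tags read highest, was the highest array in 46.9% of all genes and 22.4% of the chaperone genes. Probe sets that follow the tags made up 41.8% of the array and 16.2% of the chaperone probe sets. The shares for affected 3 were not counted without them, so 31.3% and 11.2% are not on a like basis. The 9 measured members among the usual heat shock factor 1 targets (HSPA8, HSPH1, HSP90AA1, HSP90AB1, HSPD1, HSPE1, DNAJB1, DNAJB4 and BAG3) had medians of 0.013, 0.055 and 0.41 on the affected arrays, against 0.011, -0.094 and -0.18 on the control arrays. Of these, 7 lay above 0, against 35% of all genes, with a median difference of 0.23, and 0 passed the adjusted threshold in limma. Without the probe sets that follow the tags 7 of the 9 lay above 0, against 56.2% of all genes left. HSPA1A, HSPA1B and DNAJA1 of the 12 listed targets were not measured. The factor's own gene HSF1 had -0.13, 0.028 and 0.040 in the affected dogs, against -0.072, -0.053 and 0.040 in the controls, a difference of 0.0071 (SE 0.069). On affected 3 the labelling controls spiked into the RNA read 2.48, compared with 0.48 and -0.21 on the other affected arrays and -0.019, -0.19 and -0.11 on the control arrays. Beta-actin control probe sets at the 3' end read further above those at the 5' end where RNA is less intact. This gap was taken between centred values, so it compares arrays and carries no level. It was 0.25, -0.13 and 0.84 in the affected dogs, against 0.045, 0.16 and -0.23 in the controls. For GAPDH it was -0.013, 0.26 and -0.064 in the affected dogs, against -0.026, 0.30 and -0.19 in the controls. The part of RNA quality and labelling in the values of affected 3 was not tested.

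The genes that were lower without overlap mostly followed the unexpressed tags. The affected dogs were all below the controls in 9 of 67 genes, where 41.7% of all genes showed this, and above them in 8, where 5.8% did. In 8 of the 9 (HSPA12A, DNAJB3, DNAJB7, DNAJB8, DNAJB13, DNAJC22, CCT6B and CCT8L2) every probe set followed the mean of 17 unexpressed control tags at a correlation over 0.9, and DNAJC19 was the other. The same share over all genes was not counted. Of all probe sets on the array that follow the tags, 95.3% were lower without overlap, so this is no trait of the chaperone genes. DNAJB3, DNAJB7, DNAJB8 and DNAJB13 are known in humans mainly from testis or sperm. The tags themselves read -0.030, -0.032 and -0.014 in the affected dogs, against 0.059, 0.011 and 0.13 in the controls, so any probe set that follows them is lower in the affected dogs. For example, DNAJB13 had -0.067, -0.035 and -0.015 in the affected dogs, against 0.077, 0.015 and 0.18 in the controls, and DNAJB3 had -0.032, -0.042 and -0.012 in the affected dogs, against 0.099, 0.012 and 0.19 in the controls. DNAJB7 had -0.070, -0.073 and -0.016 in the affected dogs, against 0.18, 0.016 and 0.53 in the controls, and CCT6B had -0.025, -0.026 and -0.010 in the affected dogs, against 0.071, 0.010 and 0.13 in the controls. Without control 3 the difference of DNAJB7 was -0.15, against -0.29 with it. These rows repeat the order of the tags with control 3 highest, control 1 next and small values elsewhere. CCT8L2 had -0.027, -0.056 and -0.011 in the affected dogs, against 0.063, 0.011 and 0.21 in the controls.

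In all, 24 of 148 chaperone probe sets, or 16.2%, followed the tags, against 41.8% over the array. Of these, 23, or 95.8%, did not overlap between the groups, near the 95.3% of all probe sets on the array that follow the tags. All 24 were lower in affected hearts, as were all 17956 on the array. Leaving them out thus takes away lower values only, and a higher share above 0 follows from that choice. With such probe sets left out, 59 chaperone genes were measured and 41 of them, or 69.5%, lay above 0 with a median of 0.13, against 56.2% of 10075 genes with a median of 0.049. Then 8 of 59 were above all controls and 0 below, where 9.6% and 11.6% of all genes were, and in limma 0 passed the adjusted threshold while 2 were higher and 0 lower at an unadjusted p under 0.05, where 6.99% and 2.3% of all genes left were. DNAJA2 and DNAJC8 kept their differences but had larger errors (unadjusted p = 0.11 and 0.0579, limma adjusted p = 0.557 and 0.525). The 8 were HSPA2, DNAJA2, DNAJB4, DNAJB6, DNAJC8, DNAJC9, BAG4 and BAG5.

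**Figure D4:**
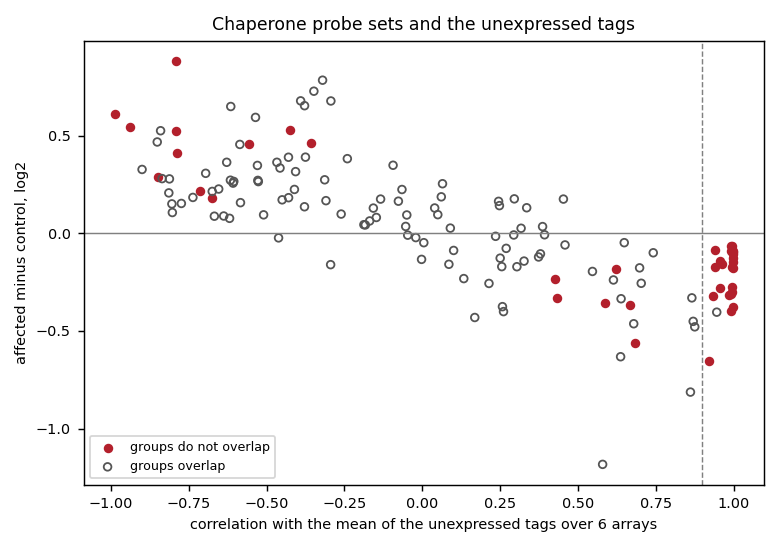
Affected minus control on the log2 scale (y axis) for the 148 chaperone probe sets against their correlation with the mean of the unexpressed tags over the 6 arrays (x axis), filled where affected and control values do not overlap. The 24 probe sets right of the dashed line at 0.9 are all below 0, and since both axes come from the same arrays the slope is no separate result.

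By class, the medians were 0.026 for HSP70 with 6 of 10 above 0, 0.013 for HSP90 with 3 of 3, 0.71 for HSPH1 alone, -0.20 for type A J-proteins with 1 of 3, -0.076 for type B with 5 of 12 and -0.010 for type C with 11 of 22. They were 0.058 for the mitochondrial chaperonin with 1 of 2, 0.15 for CCT with 5 of 8 and 0.24 for BAG with 5 of 6, against -0.075 over all genes. Without the probe sets that follow the tags the medians of HSP90, type B, type C and CCT were 0.21, 0.11, 0.076 and 0.22. Type B and type C thus changed sign. All probe sets left out were lower in affected hearts, so this shift follows from the filter. For affected 2 against the controls alone, which is what a term for affected 1 and affected 3 leaves, 32 of 67 genes lay above 0. The median was then -0.049, and the HSP70, HSP90 and CCT medians were -0.065, -0.18 and -0.11.

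**Figure D5:**
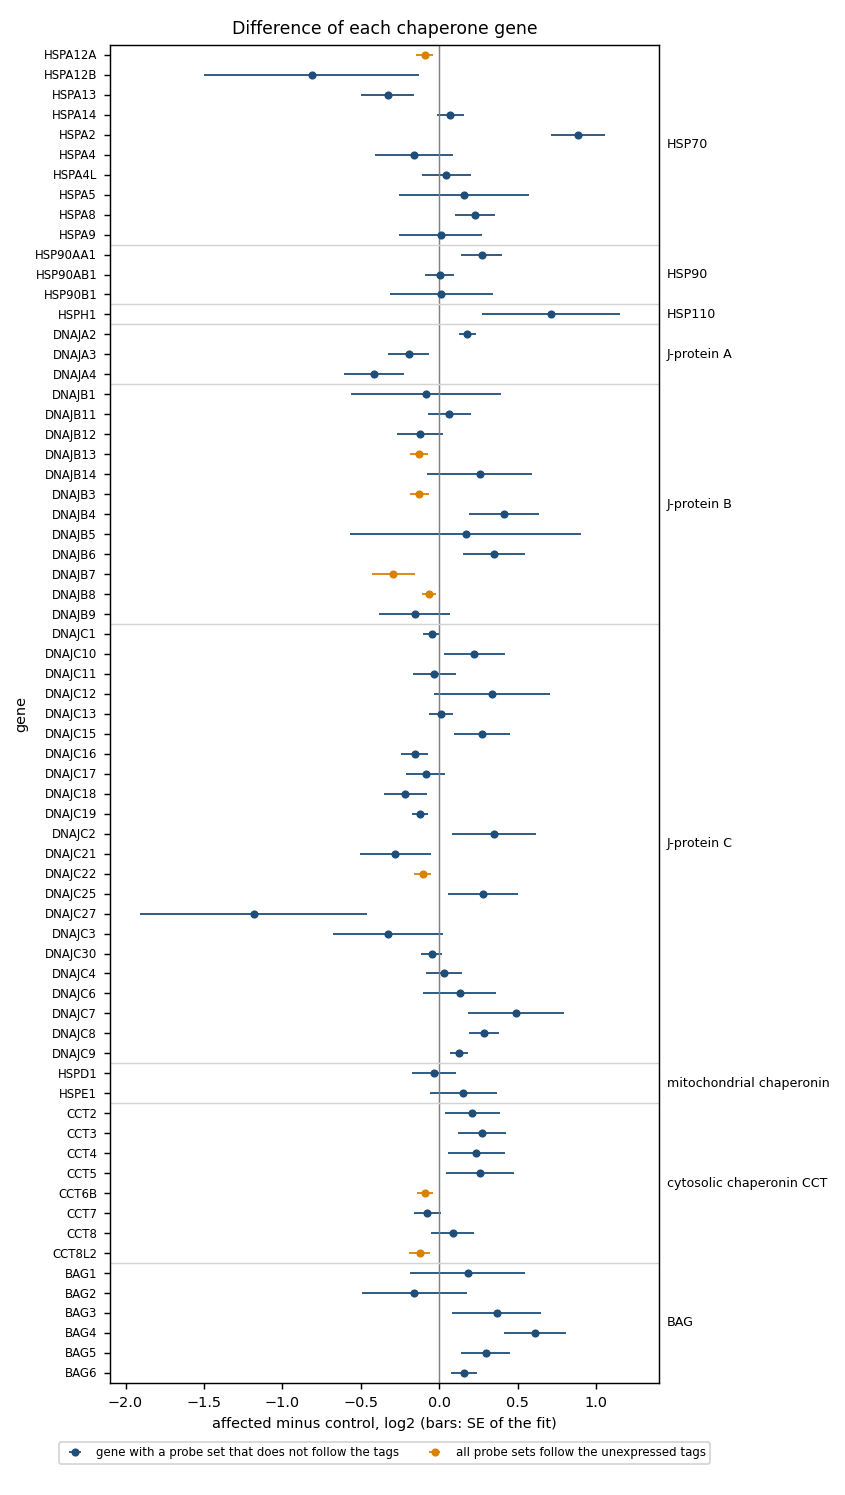
Affected minus control on the log2 scale with the moderated SE of the fit (x axis) for each of the 67 chaperone genes (y axis), grouped by class, with genes whose probe sets all follow the unexpressed tags in orange. HSPA2 at 0.88 and HSPH1 at 0.71 were the highest, and the 8 orange genes all lie a little below 0.

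Partners outside the symbol rule were read from lists. Of 26 measured cochaperones and regulators, 20 lay above 0 with a median of 0.096, against 35% of all genes and a median of -0.075. Without the probe sets that follow the tags 20 of 25 did with a median of 0.16, against 56.2% of all genes left and a median of 0.049. In limma 0 passed the adjusted threshold, and at an unadjusted p under 0.05 the list held 3 higher and 0 lower, where all genes gave 4.88% and 5.64%. These were HSPBP1, a nucleotide exchange factor of HSP70, at 0.48 (SE 0.15), CDC37, which loads kinases on HSP90, at 0.26 (SE 0.10), and STUB1, the ubiquitin ligase that binds HSP70 and HSP90, at 0.21 (SE 0.075). HSPBP1 had 0.39, 0.024 and 0.44 in the affected dogs, against -0.036, -0.15 and -0.41 in the controls, without overlap. FKBP4, an HSP90 cochaperone of steroid receptors, had -0.064, 0.085 and 1.17 in the affected dogs, against -0.15, 0.15 and -0.13 in the controls, with affected 3 again highest, and its difference of 0.44 was 0.052 without affected 3 and 0.67 without affected 1.

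Of 19 measured folding and unfolded protein response genes of the reticulum, 13 lay above 0 with a median of 0.15, 0 passed the adjusted threshold in limma, and 2 were higher and 0 lower at an unadjusted p under 0.05 (all genes 35% above 0, 4.88% higher and 5.64% lower). Without the probe sets that follow the tags 13 of 19 lay above 0, against 56.2% of all genes left. DDIT3, the stress-induced transcription factor CHOP, had 0.73, 0.67 and 0.19 in the affected dogs, against -0.19, -0.29 and -0.51 in the controls, without overlap and with a difference of 0.86 (SE 0.17, unadjusted p = 0.00356, limma adjusted p = 0.322). SEC63, a J-domain protein of the translocon, differed by 0.39 (SE 0.13). The chaperones HSPA5 and HSP90B1 of the same compartment differed by 0.16 and 0.013. Of 9 mitochondrial partners 6 lay above 0 with a median of 0.15, 0 passed the adjusted threshold in limma, and 3 were higher and 0 lower at an unadjusted p under 0.05, against the same shares of all genes (35%, 4.88% and 5.64%). These were the protease LONP1 at 0.79 (SE 0.21), the import motor subunit TIMM44 at 0.63 (SE 0.21) and GRPEL1, the nucleotide exchange factor of HSPA9, at 0.34 (SE 0.10). GRPEL1 had 0.17, 0.12 and 0.053 in the affected dogs, against -0.026, -0.30 and -0.36 in the controls, while HSPA9 itself differed by 0.0081. Without the probe sets that follow the tags 7 of the 9 mitochondrial partners lay above 0, against 56.2% of all genes left.

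Markers of the cell types in the ventricle gave the following values beside these genes, and 0 passed the adjusted threshold in limma. Of 8 fibroblast markers 7 lay above 0, all 7 without overlap and 6 at an unadjusted p under 0.05 (all genes 35% above 0, 5.8% without overlap and 4.88% at that p), with a median difference of 1.58 and list medians of 1.08, 0.11 and 0.67 on the affected arrays, against -0.35, -0.15 and -1.73 on the control arrays. All 8 macrophage and monocyte markers lay above 0 with a median of 0.74, with list medians of 2.17, -0.051 and -0.0089 on the affected arrays, against 1.26, -0.43 and -0.61 on the control arrays. Of 12 cardiomyocyte markers 9 lay above 0 with a median of 0.12, and list medians ran from 0.025 to 0.072 on the affected and from -0.18 to 0.021 on the control arrays. Without the probe sets that follow the tags 7 of 8 fibroblast, 8 of 8 macrophage and 10 of 12 cardiomyocyte markers lay above 0. That held for 56.2% of all genes left. Endothelial, smooth muscle and adipocyte lists had medians of -0.013, 0.086 and 0.27. Endothelial markers went both ways, with 3 of 7 above 0. VWF differed by 0.89 (SE 0.26) without overlap and PECAM1 by -0.82 (SE 0.32) with overlap. The T and B cell list had -0.12, but without the probe sets that follow the tags 2 of its 6 genes were left, with a median of 0.11. The 1 measured red cell marker, ALAS2, differed by -1.52. ALAS2 had 1.07, -0.064 and -0.26 in the affected dogs, against 0.064, 5.53 and -0.28 in the controls, so control 2 alone was high, and without it the difference turned to 0.36. No marker is known to be at 0, since the values carry no level, and the part of cell composition in the chaperone differences was not tested.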

How the data were processed

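Affymetrix canine arrays of 3 affected and 3 control left ventricles were analysed, 1 array a dog. The authors deposited log2 values for 43035 probe sets, a scale inferred from the range of the values and from the tools listed. GCRMA and MAS5 are listed, per the submitters' processing notes, and how each was used is not given in the sources used here. Tested on the deposited table, every probe set has a median of 0 over the 6 arrays, so levels and detection are lost, and the depth of signal over background is unknown.

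The 111 control probe sets were set aside, and 42924 were fitted. The 29254 with 1 gene symbol in the platform annotation, which can be old, were averaged to 15115 genes. Of the 67 chaperone symbols, 65 were the same in RefSeq by gene ID. The deposited log2 values were fitted with limma 3.58.1 (lmFit and eBayes, R 4.3.3, no array trend) as affected minus control, with 4 residual degrees of freedom. Adjusted p-values are Benjamini-Hochberg over all genes or all probe sets. SE is the moderated standard error. A probe set follows the unexpressed tags where its correlation with the mean of the 17 tag controls exceeds 0.9. The fit was tested on simulated data.

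The members, gene lists and tests were chosen with earlier results of these data known. The 34 genes named by rule are a list of well-known chaperones, all CCT genes, the genes of smallest p in each class, and any whose probe sets differed in sign by over 0.5 each way. HSPA12B, DNAJB4, DNAJB5, DNAJC27, BAG5 and the partner genes given with values were chosen after their values were seen. The counts by sex, by highest array and by negative tag correlation were added after seeing the data. Alternatives covered filtering, scaling, the probe set used, covariates, the replicate block and leaving out each dog. The replicates are single dogs, so p-values measure the spread between dogs. No sequence was used here, and the planned promoter motif search was not run.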

Additional observations from a re-analysis of the deposited data

How the results depend on the processing

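No chaperone gene or probe set passed the adjusted threshold in limma under any of the alternatives run, and the smallest adjusted p of a chaperone gene ran from 0.162 without control 2 to 0.659 with a term for affected 1 and affected 3. Counts at an unadjusted p under 0.05 moved: genes higher were 2 with a filter that left out the 40% of probe sets of smallest range, 7 with quantile normalization, 2 without the probe sets that follow the tags and 2 with the term for affected 1 and affected 3. Genes lower were 1 with quantile normalization, 1 with the probe set of largest range, 5 with age and 1 with that term. Probe sets higher were 3, 13, 10 and 2 with the range filter, quantile normalization, age and that term. Probe sets lower were 0 with the range filter, 8 with quantile normalization, 1 with median centring, 1 without the tag followers, 9 with sex, 18 with age and 0 with that term. With single dogs left out, genes ran from 1 to 7 higher and 0 to 13 lower, and probe sets from 3 to 16 higher and 1 to 25 lower.

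Class medians with single dogs left out ran from -0.12 to 0.096 for HSP70, -0.065 to 0.18 for HSP90, 0.30 to 1.05 for HSP110, -0.31 to -0.12, -0.16 to 0.090 and -0.038 to 0.072 for type A, B and C J-proteins, -0.072 to 0.17 for the mitochondrial chaperonin, 0.075 to 0.27 for CCT and 0.12 to 0.31 for BAG. With the probe set of largest range HSP70 was 0.14, HSP90 0.14, type A 0.13, type C 0.056 and BAG 0.34. With quantile normalization HSP90 was -0.026. With the term for affected 1 and affected 3, HSP70 and HSP90 were -0.065 and -0.18. Types A, B and C, CCT and BAG were then -0.049, 0.0048, 0.024, -0.11 and 0.082. Type C was 0.032 with the range filter and 0.062 with median centring, and without the tag followers types B and C were 0.11 and 0.076.

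Of 536 values of the 34 named genes under alternatives, 502 kept their sign and 34 reversed, and 20 genes kept it throughout. Reversed under the term for affected 1 and affected 3 were BAG3 at -0.15, CCT2 at -0.060, CCT4 at -0.12, CCT8 at -0.14, HSP90AB1 at -0.18, HSP90B1 at -0.32 and HSPA9 at -0.083. Quantile normalization turned HSP90AB1 to -0.045, HSP90B1 to -0.026 and HSPA9 to -0.095, age turned HSP90B1 to -0.017, and median centring turned HSPD1 to 0.036. The probe set of largest range turned DNAJA3 to 0.13, HSPA4 to 0.65 and HSPA9 to -0.26, and leaving out the tag followers turned DNAJC19 to 0.076 and HSPA4 to 0.087. With single dogs left out, reversals gave ranges of -0.0026 to 0.20 for CCT8, -0.39 to 0.36 for DNAJB1, -0.065 to 0.092 for HSP90AB1, -0.27 to 0.18 for HSP90B1, -0.19 to 0.40 for HSPA5, -0.19 to 0.28 for HSPA9, -0.12 to 0.077 for HSPD1 and -0.080 to 0.27 for HSPE1. The cause of these shifts was not tested.

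The replicate numbers come from the sample titles, which tie them to no shared litter, batch or day. Deviations of same-numbered arrays correlated at 0.252, 0.165 and 0.0641, and 6 of 6 arrays correlated best with their own number, a hint from the data and not from the design. Under the replicate block 0 chaperone genes and probe sets were called, the smallest adjusted p of a chaperone gene was 0.379, and at an unadjusted p under 0.05 genes numbered 3 higher and 0 lower and probe sets 8 higher and 5 lower. The 3 dogs a group limit the precision, and signal over background is unknown, since the centred values carry no level.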
